A study of Homo sapiens with 6 samples.

Results

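The genes examined here are 42 genes of cell death control: the BCL2 family, the mitochondrial release factors and the apoptosome, the caspases, the death receptors with their ligand and adaptors, MDM2 and MDM4, and the gasdermins and necroptosis genes. They were chosen by symbol, and each of the 42 symbols matched 1 Ensembl identifier among the 60605 genes of the count table. Of these, 37 had enough reads to be tested, among 14479 genes tested in all, and the other 5 are given by their counts. RNA sequencing was done on UMUC3, an established human bladder cancer cell line, in 6 libraries of total RNA. The 3 TIM-1 libraries came from cells infected with TIM-1-PLVX-IRES-zsgreen, a PLVX vector carrying TIM-1 with a zsGreen reporter behind an internal ribosome entry site. The 3 empty vector libraries came from cells infected with PLVX-IRES-Zsgreen, so the reporter and the infection were shared by both groups. TIM-1 is the protein encoded by HAVCR1, and the labels give no dose, time after infection, sorting step or cloning step. They do not tell whether the 3 libraries of a group are separate cultures, and the p-values rest on library-to-library spread alone, part of which may be technical.

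Apoptosis through the mitochondria is set by the balance between pro-survival BCL2 proteins and their BH3-only antagonists, which hold back or release the pore formers BAX and BAK1. Once the outer membrane opens, cytochrome c joins APAF1 to activate caspase-9, while death receptors such as FAS and the TRAIL receptors start the same executioner phase through FADD and caspase-8. Several of these genes, among them BAX, BBC3, PMAIP1, FAS and the TRAIL receptors, are textbook transcriptional targets of p53, the protein that MDM2 and MDM4 restrain.

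HAVCR1 had 7069, 9824 and 11479 counts in the TIM-1 libraries, against 4, 0 and 0 in the empty vector libraries, so the groups were as labelled. Total counts ran from 14312387 to 18605914 in the TIM-1 libraries and from 15651864 to 17162935 in the empty vector libraries. Epithelial KRT8 and KRT18 and mesenchymal VIM, ZEB1 and CDH2 were read in all 6 libraries, highly enough to be tested. Epithelial KRT7 (3 to 15 counts a library) and KRT19 (2 to 12) were too low to test. EPCAM had 0 counts in all, CDH1 had 2 counts in 1 TIM-1 library, and 5 of 6 leukocyte markers had 0 counts in all. Of 9 urothelial markers, GATA3, FOXA1, PPARG and UPK1A were read highly enough to be tested. UPK3A had 0 counts in all, and UPK1B, UPK2, KRT5 and TP63 had 0 to 5 counts in each library. In the fit paired by replicate number, edgeR called PPARG higher (log2 fold change 0.62, adjusted p = 0.0185) and GATA3 (-1.25, adjusted p = 0.0457) and KRT18 (-0.24, adjusted p = 0.00946) lower with TIM-1. Without that pairing, edgeR called none of these, with adjusted p of 0.644 for PPARG, 0.676 for GATA3 and 0.917 for KRT18. GATA3 had only 12, 15 and 12 counts in TIM-1 libraries, against 18, 38 and 38 in empty vector libraries. The part of these markers in the results for cell death genes was not tested. In either group, the library numbered 1 differed from those numbered 2 and 3. Adjusting for the vector, edgeR's quasi-likelihood test called 26.4% of all tested genes between replicate 1 and the other replicates at an adjusted p under 0.05. KRT18 was among them, lower in replicate 1 by a log2 difference of -0.51. The difference between groups is therefore given from 2 fits, 1 without and 1 with the replicate number as a block, called unpaired and paired below.

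No cell death gene passed the test for TIM-1 in either fit. The unpaired edgeR test called 0 of 37, where it called 0.0138% of all tested genes, which is 2 genes, both higher, HAVCR1 among them. The paired edgeR test called 0 of 37, where it called 5.01% of all tested genes, 466 higher (3.22%) and 259 lower (1.79%). At an unadjusted p under 0.05, the unpaired fit had 1 cell death gene, DIABLO, against 5.49% of all tested genes. The paired fit had 6 at that level, namely CYCS, TNFRSF10A, CASP2, CFLAR, GSDMD and GSDME, against 18.3% of all tested genes. DESeq2 called 0 of the 37 with and without the block, and the paired edgeR fit without replicate 1 of both groups also called 0. The count of 725 genes called in the paired fit was 209 without replicate 2 of both groups and 473 without replicate 3.

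The differences were small for most of these genes. The median log2 fold change of the 37, TIM-1 over empty vector, was 0.02 in the paired fit, against 0.000 over all tested genes, and the median size was 0.11 against 0.12. Estimates ran from -0.25 to 0.69. The 95% interval of the paired fold change lay within 0.5 of 0 on the log2 scale for 31 of 37, a share that was 65.8% over all tested genes, and within 1 of 0 for 35 of 37. The exceptions to the wider bound were DIABLO and BMF, both under 3 CPM (the count scaled to a common library total, with TMM factors) in every library. The 3 TIM-1 libraries lay wholly above or below the 3 empty vector libraries in 3 of 37 genes, against 11.7% of all tested genes, 6.6% above and 5.06% below. These were DIABLO and CASP9, above, and CASP2, below. The 3 same-numbered pairs pointed the same way in 16 of 37, against 39.2% of all tested genes.

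**Figure D1:**
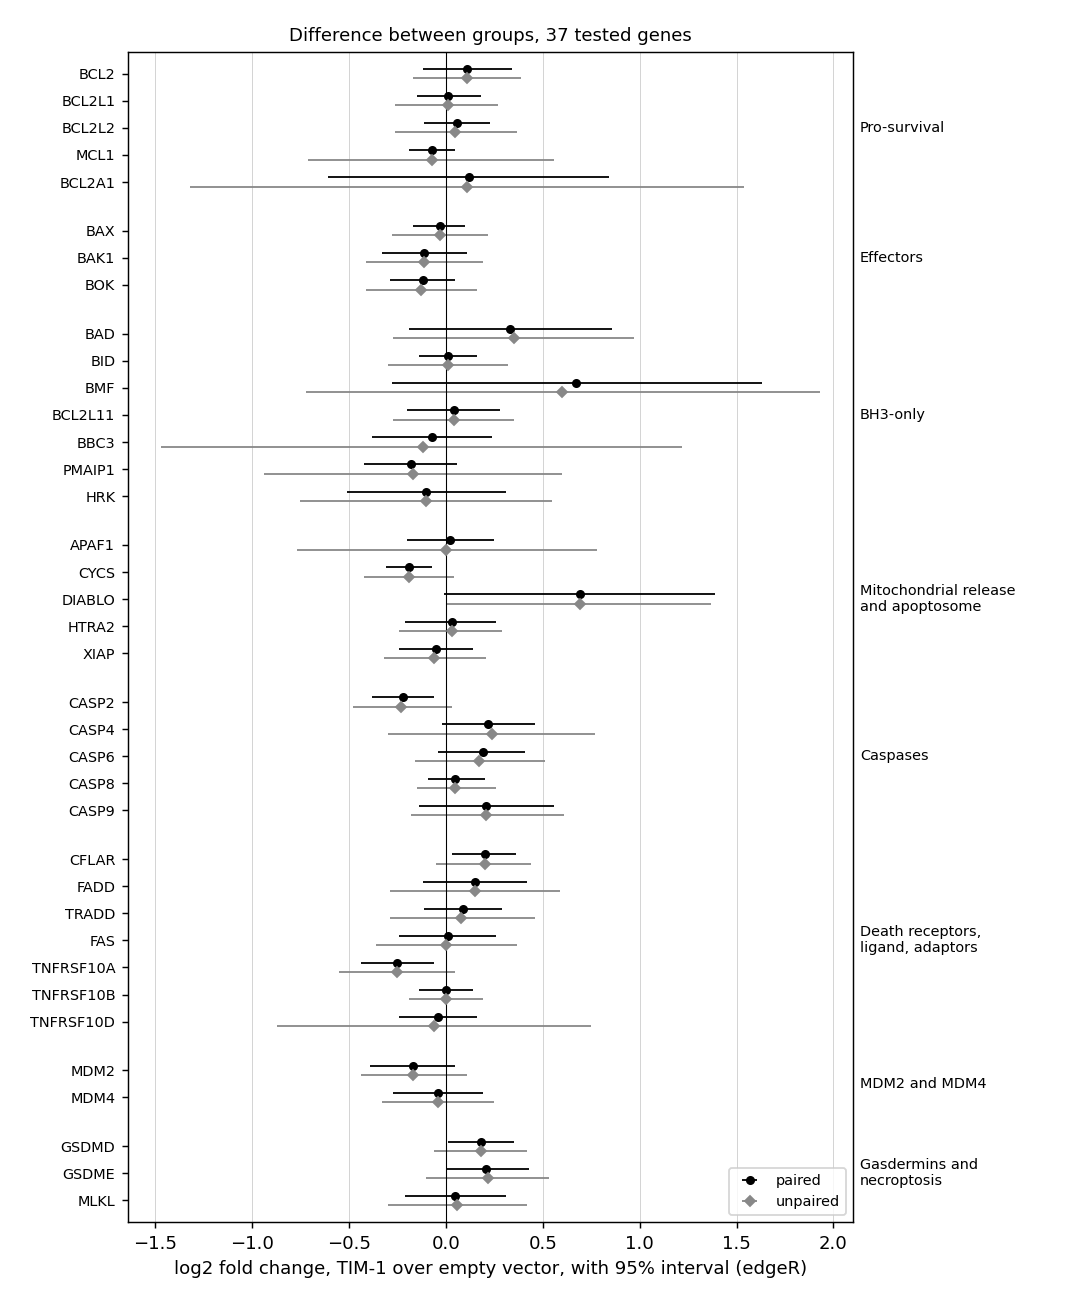
Log2 fold change of TIM-1 over empty vector for the 37 tested genes, grouped by role, from the paired (black circles) and the unpaired (grey diamonds) edgeR fit; bars are 95% intervals. The paired estimates lie between -0.25 and 0.69, and the unpaired intervals of MCL1, BBC3, APAF1 and TNFRSF10D are much wider than the paired ones.

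Among the 5 pro-survival genes, whose proteins bind and hold BH3 domains, 0 were called and the paired log2 fold changes ran from -0.07 to 0.12. MCL1, a short-lived guardian of the outer mitochondrial membrane, was the most abundant of them per length. MCL1 (ENSG00000143384, chr1:150574551-150579738, minus strand, GENCODE 29 on GRCh38) had 210, 348 and 345 CPM in the TIM-1 libraries, against 220, 382 and 349 CPM in the empty vector libraries. In both groups the replicate 1 library was the lowest, and the groups overlapped. The paired log2 fold change of MCL1 was -0.07 (SE 0.06, 95% interval -0.19 to 0.05, edgeR adjusted p = 0.563), and the unpaired interval was wider, -0.71 to 0.56.

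Per kilobase of merged exons, and averaged over the 6 libraries, MCL1 stood at 70.7 CPM, BCL2L1 (BCL-XL) at 14.1, BCL2L2 (BCL-W) at 10.4, BCL2 at 1.5 and BCL2A1 (BFL-1) at 1.44. The first 4 were in that order in every library with no overlap in range, while BCL2 exceeded BCL2A1 in 3 of 6 libraries. BCL2 ran from 17.4 to 19.3 CPM in TIM-1 libraries, against 15.4 to 18.0 CPM in empty vector libraries. BCL2L1 ran from 43.3 to 48.6 CPM in TIM-1 libraries, against 42.3 to 54.2 CPM in empty vector libraries. BCL2L1 shares 43.0% of its exon bases with the antisense gene ABALON, which had 2 counts over all libraries. BCL2L2 ran from 41.1 to 50.2 CPM in TIM-1 libraries, against 35.0 to 49.7 CPM in empty vector libraries, and shares 19.4% of its exon bases with the readthrough gene BCL2L2-PABPN1. BCL2A1, an NF-kappaB-responsive gene, had 0.483, 2.48 and 1.89 CPM in TIM-1 libraries, against 0.626, 2.78 and 1.15 CPM in empty vector libraries, with replicate 1 lowest in both.

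The 3 effectors form or promote the pore in the outer membrane, and 0 of 3 were called, with paired log2 fold changes from -0.12 to -0.03. BAX (ENSG00000087088, chr19:48954815-48961798, plus strand) had 84.5, 105 and 104 CPM in the TIM-1 libraries, against 90.2, 99.6 and 110 CPM in the empty vector libraries. The groups overlapped, and replicate 1 was again the lowest in each. For BAX, the paired log2 fold change was -0.03 (SE 0.07, 95% interval -0.17 to 0.10, edgeR adjusted p = 0.856). Per kilobase, BAX averaged 38.3 CPM, BOK 17.2 and BAK1 9.08, in that order in all 6 libraries with no overlap in range. BAK1, the partner pore former, ran from 16.6 to 21.0 CPM in TIM-1 libraries, against 19 to 22.6 CPM in empty vector libraries. BOK, a less studied relative, ran from 41.5 to 47.3 CPM in TIM-1 libraries, against 42.5 to 57.7 CPM in empty vector libraries.

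Of the 8 BH3-only genes, which carry death signals to the BCL2 proteins, 7 were tested and 0 were called. BID, the BH3-only protein that caspase-8 cleaves, had the highest level per length, 13.7 CPM per kilobase. BID (ENSG00000015475, chr22:17734138-17774770, minus strand) had 50.5, 65.6 and 67.1 CPM in the TIM-1 libraries, against 51.9, 70.1 and 60.1 CPM in the empty vector libraries. The groups overlapped and replicate 1 was lowest in each. For BID, the paired log2 fold change was 0.01 (SE 0.08, 95% interval -0.14 to 0.16, edgeR adjusted p = 0.970).

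PMAIP1 (NOXA) and BBC3 (PUMA) are the BH3-only genes best known as p53 targets, and their group difference was small beside the difference of replicate 1. PMAIP1 (ENSG00000141682, chr18:59899948-59904306, plus strand) had 8.69, 18.8 and 16.8 CPM in the TIM-1 libraries, against 10.2, 19.9 and 20 CPM in the empty vector libraries. BBC3 (ENSG00000105327, chr19:47220822-47232766, minus strand) had 4.90, 11.4 and 11.2 CPM in the TIM-1 libraries, against 3.19, 13.1 and 13.8 CPM in the empty vector libraries. In both genes the 2 replicate 1 libraries lay below the other 4, whichever vector the cells carried. The paired log2 fold change was -0.18 for PMAIP1 (SE 0.12, edgeR adjusted p = 0.435) and -0.07 for BBC3 (SE 0.15, edgeR adjusted p = 0.866).

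The other BH3-only genes ranged from levels near those of PMAIP1 to counts under the filter. BCL2L11 (BIM), which binds every pro-survival relative, ran from 14.2 to 16.4 CPM in TIM-1 libraries, against 13.3 to 16.2 CPM in empty vector libraries. BCL2L11 shares 10.9% of its exon bases with MIR4435-2HG on the opposite strand, which had 5296 counts in all. HRK (Harakiri) ran from 2.83 to 5.07 CPM in TIM-1 libraries, against 3.26 to 6 CPM in empty vector libraries. BAD, which growth factor signalling keeps phosphorylated, ran from 2.23 to 3.93 CPM in TIM-1 libraries, against 2.07 to 2.71 CPM in empty vector libraries. BAD shares 23.7% of its exon bases with GPR137 on the opposite strand, which had 3541 counts in all. BMF, tied in the literature to the cytoskeleton, ran from 0.648 to 1.59 CPM in TIM-1 libraries, against 0.181 to 1.06 CPM in empty vector libraries. Its paired interval, -0.28 to 1.63, was the widest among the tested genes of the 42. BIK was under the filter, with 4, 2 and 9 counts in TIM-1 libraries, against 3, 4 and 1 in empty vector libraries.

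The promoters of 3 genes are shown because these genes stand out in the values: CYCS came closest to the threshold for TIM-1, and PMAIP1 and BBC3 had large replicate 1 differences. No link between these sequences and the differences was tested. The sequences are the 250 bases before the RefSeq start on GRCh38.p14, read 5′ to 3′ on the gene's strand, at chr7:25125261-25125510 (minus), chr18:59899746-59899995 (plus) and chr19:47232668-47232917 (minus). Capitals mark TGACG, the core of the CREB and ATF motif, and CCAAT, the NF-Y motif, which appear as CGTCA and ATTGG where they lie on the opposite strand.
CYCS: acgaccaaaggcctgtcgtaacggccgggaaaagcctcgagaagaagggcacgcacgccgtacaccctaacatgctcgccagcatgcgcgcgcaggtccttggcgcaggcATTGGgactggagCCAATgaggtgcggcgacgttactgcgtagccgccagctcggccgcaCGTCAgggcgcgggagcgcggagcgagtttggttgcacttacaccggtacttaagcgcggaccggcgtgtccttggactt
PMAIP1: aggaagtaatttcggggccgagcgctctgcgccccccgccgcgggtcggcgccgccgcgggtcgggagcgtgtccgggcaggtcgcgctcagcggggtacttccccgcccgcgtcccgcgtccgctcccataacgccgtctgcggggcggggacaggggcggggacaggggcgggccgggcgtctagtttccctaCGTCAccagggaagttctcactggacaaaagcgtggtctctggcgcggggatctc
BBC3: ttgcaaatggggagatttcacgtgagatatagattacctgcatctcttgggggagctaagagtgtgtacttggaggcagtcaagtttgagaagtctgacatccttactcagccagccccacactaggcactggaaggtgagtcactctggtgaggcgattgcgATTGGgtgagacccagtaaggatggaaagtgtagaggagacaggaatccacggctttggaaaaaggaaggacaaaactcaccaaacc
The CYCS promoter held 1 TGACG, ending 75 bases before the start, and 2 CCAAT, ending 135 and 122 bases before it. PMAIP1 held 1 TGACG, ending 50 bases before the start, and BBC3 held 1 CCAAT, ending 82 bases before it. Searched on both strands, TGACG was in 14 of the 31 promoters matched among the 42 genes and in 21.2% of all 35116 promoters of the table. CCAAT was in 15 of 31 and in 32% of all, and TATAAA in 4 of 31 and 10.7% of all. A p53 half-site was in 4 of 31, namely BAK1, CASP8, CASP9 and FAS, and in 5.57% of all. A match describes these letters only.

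Among the 5 genes of mitochondrial release and the apoptosome, 0 were called. CYCS, which encodes cytochrome c, the electron carrier that also nucleates the apoptosome, came closest to the threshold of all 37. CYCS (ENSG00000172115, chr7:25120091-25125361, minus strand, its promoter printed above) had 195, 231 and 242 CPM in the TIM-1 libraries, against 230, 264 and 267 CPM in the empty vector libraries. The TIM-1 library was the lower in each of the 3 pairs, with log2 ratios of -0.24, -0.19 and -0.15, although the groups overlapped. CYCS averaged 223 ± 24.6 CPM in TIM-1 libraries and 254 ± 20.9 CPM in empty vector libraries (SD, n = 3 each). The paired log2 fold change was -0.19 (SE 0.06, 95% interval -0.31 to -0.07, edgeR adjusted p = 0.0526), and the unpaired one was -0.19 with an edgeR adjusted p of 0.893. CYCS passed the threshold in the paired fit with RLE scaling (adjusted p = 0.0495) and with a GC correction (adjusted p = 0.0176), and over the other paired alternatives its adjusted p ran from 0.0515 to 0.418. Retrocopies of CYCS are common in the human genome, so its counts may include or lack reads shared with them.

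DIABLO (SMAC), which releases caspases from XIAP, had the largest estimated difference, at a low level. DIABLO (ENSG00000184047, chr12:122207663-122226568, minus strand) had 2.14, 1.67 and 2.05 CPM in the TIM-1 libraries, against 0.940, 1.36 and 1.33 CPM in the empty vector libraries. All 3 TIM-1 libraries were above all 3 empty vector libraries. The paired log2 fold change was 0.69 (SE 0.35, 95% interval -0.01 to 1.39, edgeR adjusted p = 0.284), and without replicate 1 of both groups it was 0.46. DIABLO shares 29.6% and 16.8% of its exon bases with 2 genes on the same strand, which had 1 and 0 counts in all. It shares 14.3% with B3GNT4 on the opposite strand, which had 39, 25 and 40 counts in TIM-1 libraries, against 31, 24 and 33 in empty vector libraries, next to 31, 27 and 38 against 15, 22 and 22 for DIABLO. The strand setting and the rule for reads in shared exons are not given here, so the level of DIABLO is uncertain.

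APAF1, the apoptosome scaffold, had 27.0, 15.5 and 14.8 CPM in TIM-1 libraries, against 28.3, 14.3 and 14.4 CPM in empty vector libraries. Here the 2 replicate 1 libraries were the highest, at nearly the same level in both groups. HTRA2, a mitochondrial protease that also binds XIAP, ran from 15.8 to 16.5 CPM in TIM-1 libraries, against 15.3 to 16.4 CPM in empty vector libraries. HTRA2 shares 20.8% of its exon bases with LOXL3 and 16.1% with AUP1, both on the opposite strand. LOXL3 had 167 counts in all and AUP1 11781, or 1482 to 2453 a library for AUP1, next to 236 to 305 for HTRA2. Whether reads of AUP1 enter the HTRA2 count was not tested. XIAP, the caspase inhibitor, ran from 29.5 to 34.4 CPM in TIM-1 libraries, against 30.2 to 36.3 CPM in empty vector libraries. Per kilobase, CYCS averaged 53.4 CPM, HTRA2 5.34, XIAP 3.56, APAF1 2.41 and DIABLO 0.233, and among neighbours in this order only XIAP and APAF1 overlapped in range.

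Of the 7 caspases, 5 were tested and 0 were called, with paired log2 fold changes from -0.22 to 0.22. CASP6, an executioner caspase, had the highest mean level per length at 9.62 CPM per kilobase, next to 9.24 for the initiator CASP8, and each exceeded the other in 3 of 6 libraries. CASP6 (ENSG00000138794, chr4:109688622-109703583, minus strand) had 21.4, 19.4 and 18.7 CPM in the TIM-1 libraries, against 21.2, 16.3 and 15.2 CPM in the empty vector libraries. The groups overlapped, and the paired log2 fold change was 0.19 (SE 0.11, 95% interval -0.04 to 0.41, edgeR adjusted p = 0.389). CASP6 shares 5.4% of its exon bases with MCUB on the opposite strand, which had 4555 counts in all. CASP8, which death receptors recruit through FADD, ran from 64.2 to 71.2 CPM in TIM-1 libraries, against 61.4 to 69.3 CPM in empty vector libraries.

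CASP2, the caspase activated by the PIDDosome, was below the empty vector in every TIM-1 library. CASP2 (ENSG00000106144, chr7:143288215-143307696, plus strand) had 43.3, 46.3 and 45.6 CPM in the TIM-1 libraries, against 47.5, 49.2 and 61.4 CPM in the empty vector libraries. The groups did not overlap, but the highest TIM-1 library and the lowest empty vector library were close, and the third empty vector library was well above the rest. The paired log2 fold change was -0.22 (SE 0.08, 95% interval -0.38 to -0.06, edgeR adjusted p = 0.11), and without replicate 3 of both groups it was -0.11. With a GC correction CASP2 passed the threshold (adjusted p = 0.0348), and over the other paired alternatives its adjusted p ran from 0.0798 to 0.682.

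CASP9, the caspase of the apoptosome, lay above the empty vector in every TIM-1 library. CASP9 (ENSG00000132906, chr1:15490832-15526534, minus strand) had 7.38, 6.31 and 5.77 CPM in the TIM-1 libraries, against 5.70, 5.38 and 5.67 CPM in the empty vector libraries. The lowest TIM-1 library was 5.77 CPM and the highest empty vector library 5.70 CPM. The estimate of the paired fit was a log2 fold change of 0.21 (SE 0.18, 95% interval -0.14 to 0.56, edgeR adjusted p = 0.571), and without replicate 1 of both groups it was 0.12.

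The inflammatory caspase CASP4, a sensor of cytosolic lipopolysaccharide, ran from 11.3 to 21.0 CPM in TIM-1 libraries, against 10.6 to 16.2 CPM in empty vector libraries. CASP1, which matures interleukin-1 beta, was under the filter with 2, 2 and 8 counts in TIM-1 libraries, against 0, 1 and 0 in empty vector libraries. Summed over libraries that is 12 counts against 1, a ratio of 11.9 with an exact 95% counting interval of 1.76 to 508, and 8 of the 12 counts came from 1 library. The interval covers counting error only and says nothing of the spread between libraries. The ratio was taken for CASP1 alone among the genes under the filter and is no test of TIM-1. Summed the same way, BIK had 15 counts against 8, CASP10 8 against 8, TNFSF10 3 against 0 and RIPK3 0 against 0. CASP10, the relative of CASP8, had 2, 2 and 4 counts in TIM-1 libraries, against 5, 3 and 0 in empty vector libraries.

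**Figure D2:**
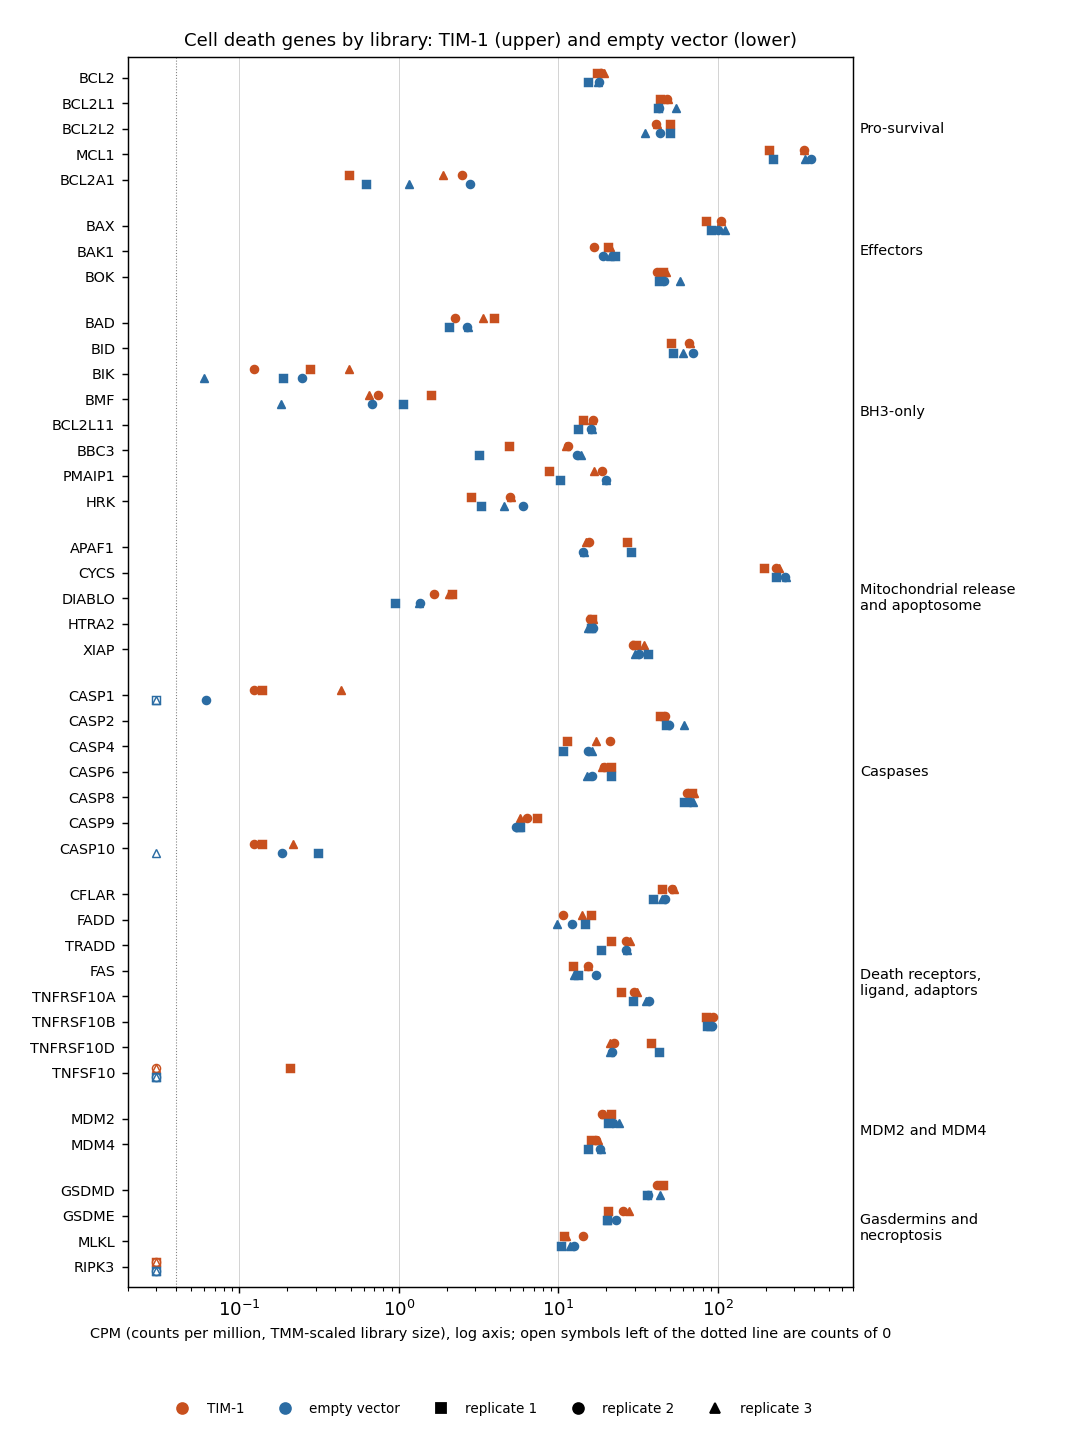
CPM of the 42 genes in each library on a log axis, by role, with TIM-1 (orange) above empty vector (blue) in each row and the symbol giving the replicate; open symbols mark counts of 0. MCL1 and CYCS lie at the top in both groups, RIPK3 is at 0 in all 6 libraries, and the squares of replicate 1 sit apart in BBC3, PMAIP1, APAF1 and TNFRSF10D.

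Among the 8 genes of the death receptor arm, 7 were tested and 0 were called, with paired log2 fold changes from -0.25 to 0.20. TNFRSF10B (DR5), a death-inducing TRAIL receptor, was the most abundant per length at 17.2 CPM per kilobase. TNFRSF10B (ENSG00000120889, chr8:23020133-23069179, minus strand) had 84.2, 92.9 and 88.7 CPM in the TIM-1 libraries, against 85.8, 91.7 and 88.5 CPM in the empty vector libraries. The same-numbered libraries were nearly level, and the paired log2 fold change was -0.00 (SE 0.07, 95% interval -0.14 to 0.14, edgeR adjusted p = 0.998).

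TNFRSF10A (DR4), the other death-inducing TRAIL receptor, is given in full because its unadjusted p was under 0.05 in the paired fit. That choice was made after its values were seen, as for CFLAR and GSDME. TNFRSF10A had 24.5, 29.7 and 31.1 CPM in the TIM-1 libraries, against 29.3, 36.9 and 35.4 CPM in the empty vector libraries. The TIM-1 library was the lower in each pair, with log2 ratios of -0.26, -0.31 and -0.19, and the groups overlapped. In the paired fit, the log2 fold change was -0.25 (SE 0.09, 95% interval -0.44 to -0.06, edgeR adjusted p = 0.109), the lowest estimate of the 37. Its replicate 1 libraries were also below the others, by a log2 difference of -0.31. TNFRSF10D, a decoy receptor without a working death domain, had 38.2, 22.3 and 21.0 CPM in TIM-1 libraries, against 42.5, 21.6 and 21.1 CPM in empty vector libraries, with replicate 1 highest in both. FAS, the receptor of FAS ligand, ran from 12.3 to 15.3 CPM in TIM-1 libraries, against 12.5 to 17.1 CPM in empty vector libraries.

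CFLAR (c-FLIP), which blocks caspase-8 at the receptor, had 44.6, 51.6 and 53.3 CPM in the TIM-1 libraries, against 39.2, 46.6 and 44.8 CPM in the empty vector libraries. The TIM-1 library was the higher in each pair and the groups overlapped. Its paired log2 fold change was 0.20 (SE 0.08, 95% interval 0.03 to 0.36, edgeR adjusted p = 0.159). FADD, the adaptor of FAS and the TRAIL receptors, ran from 10.6 to 16.0 CPM in TIM-1 libraries, against 9.83 to 14.7 CPM in empty vector libraries. FADD shares 54.9% of its exon bases with an antisense gene that had 0 counts over all libraries. TRADD, the adaptor of the TNF receptor, ran from 21.4 to 28.1 CPM in TIM-1 libraries, against 18.5 to 26.7 CPM in empty vector libraries. TNFSF10, which encodes TRAIL itself, had 3, 0 and 0 counts in TIM-1 libraries, against 0 in all 3 empty vector libraries, so the ligand was at or under the floor of 3 counts (0.162 to 0.207 CPM) throughout, while TNFRSF10A, TNFRSF10B and TNFRSF10D were read at 21.0 CPM or more. TNFRSF10C, another TRAIL decoy receptor and not among the 42 genes, had 1 count in 1 TIM-1 library and 0 in the other 5 libraries. Per kilobase, TNFRSF10A at 10.6 CPM, TRADD at 9.58, TNFRSF10D at 7.85 and FADD at 6.99 overlapped with their neighbours, and FAS at 3.36 and CFLAR at 2.07 lay below them. The CFLAR value is divided by the merged exons of all its transcripts, 22529 bases, which lowers it against genes with fewer transcripts. Every order per kilobase given here depends on this division, such as that of CASP6 (1943 bases) and CASP8 (7243 bases).

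MDM2, the ligase that degrades p53, and its relative MDM4 were both present, and 0 of 2 were called. MDM2 (ENSG00000135679, chr12:68808176-68850686, plus strand) had 21.2, 18.8 and 19.2 CPM in the TIM-1 libraries, against 20.4, 21.9 and 24.1 CPM in the empty vector libraries. The groups overlapped, and the paired log2 fold change was -0.17 (SE 0.11, 95% interval -0.39 to 0.05, edgeR adjusted p = 0.429). MDM4 ran from 15.9 to 17.7 CPM in TIM-1 libraries, against 15.4 to 18.5 CPM in empty vector libraries. Per kilobase the genes were level, MDM2 at 1.58 CPM and MDM4 at 1.55, each the higher in 3 of 6 libraries.

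The gasdermins form pores in the plasma membrane after cleavage, and MLKL does so in necroptosis once RIPK3 has phosphorylated it. Of these 4 genes, 3 were tested, 0 were called, and the paired log2 fold changes ran from 0.05 to 0.21. GSDMD (ENSG00000104518, chr8:143553207-143563062, plus strand), the target of inflammatory caspases, had 45.0, 41.5 and 44.7 CPM in the TIM-1 libraries, against 36.1, 36.3 and 43.4 CPM in the empty vector libraries. The TIM-1 library was the higher in each pair, but the third empty vector library was above the second TIM-1 library. The estimate of the paired fit was a log2 fold change of 0.18 (SE 0.09, 95% interval 0.01 to 0.35, edgeR adjusted p = 0.234). GSDME, which executioner caspases cleave, had 20.3, 25.4 and 27.7 CPM in the TIM-1 libraries, against 20.2, 22.9 and 20.1 CPM in the empty vector libraries. Its log2 ratios by pair were 0.01, 0.15 and 0.46, so most of the difference lay in replicate 3 (paired log2 fold change 0.21, SE 0.11, edgeR adjusted p = 0.272). MLKL ran from 10.8 to 14.2 CPM in TIM-1 libraries, against 10.3 to 12.6 CPM in empty vector libraries. RIPK3 had 0 counts in all 6 libraries, where 3 counts would be 0.162 to 0.207 CPM, so necroptosis genes were read for the pore former and not for its kinase.

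The 9 p53-driven genes among the 42 (BAX, BBC3, PMAIP1, FAS, TNFRSF10A, TNFRSF10B, TNFRSF10D, APAF1 and MDM2) were all tested, and 0 of 9 were called in either fit. Their paired median log2 fold change was -0.04, their estimates ran from -0.25 to 0.02, and all 9 paired intervals lay within 0.5 of 0 on the log2 scale. Of 25 other p53 targets listed, 20 were tested and 0 were called in either fit, with a paired median of -0.04. With 1 pair left out, 1 of them was called lower without replicate 1 (SESN2) and 1 without replicate 3 (GADD45A). CDKN1A (p21), the cell cycle inhibitor most used as a readout of p53, had 70.5, 86.1 and 91.0 CPM in TIM-1 libraries, against 57.1, 86.6 and 90.0 CPM in empty vector libraries. Its log2 ratios by pair were 0.31, -0.01 and 0.02, and its edgeR adjusted p was 0.511 in the paired fit. CDKN1A was named after its values were seen. Of the 7 interferon-responsive genes among the 42 (TNFSF10, CASP1, CASP4, CASP8, FAS, MLKL and GSDMD), TNFSF10 and CASP1 were not tested, 0 of the other 5 were called, and the paired median of those 5 was 0.05.

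Genes of the same pathways outside the 42 gave some calls in the paired fit and none in the unpaired fit. These lists were chosen with earlier results of these data known, so their shares of calls are no test of the pathways. Of 24 other genes of the intrinsic pathway, 20 were tested, and the paired edgeR test called 2 higher and 1 lower. That is 15%, against 5.01% of all tested genes. BNIP3, a mitophagy receptor induced by hypoxia, had 305, 186 and 183 CPM in TIM-1 libraries, against 274, 141 and 133 CPM in empty vector libraries (paired log2 fold change 0.34, SE 0.06, edgeR adjusted p = 4.53e-04). Its relative BNIP3L had 257, 183 and 176 CPM in TIM-1 libraries, against 231, 139 and 136 CPM in empty vector libraries (0.30, SE 0.06, edgeR adjusted p = 0.00153). Both rose in each of the 3 pairs, and both were also higher in replicate 1 than in the other replicates. BIRC3 (cIAP2), a ubiquitin ligase of the NF-kappaB pathway, had 98.0, 428 and 393 CPM in TIM-1 libraries, against 173, 553 and 476 CPM in empty vector libraries (paired log2 fold change -0.48, SE 0.08, edgeR adjusted p = 2.75e-04). Without replicate 1 of both groups the paired log2 fold changes were 0.43 for BNIP3, 0.38 for BNIP3L and -0.33 for BIRC3, and all 3 were still called. Without replicate 2, BNIP3 (edgeR adjusted p = 0.0818) and BNIP3L (0.213) were not called.

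Of 20 other death receptor and TNF receptor genes, 16 were tested, and the paired edgeR test called 0 higher and 4 lower. That is 25%, against 5.01% of all tested genes called either way and 1.79% called lower. RIPK1, the kinase at the TNF and death receptor complexes, had 49.5, 58.4 and 59.3 CPM in TIM-1 libraries, against 61.0, 69.5 and 71.5 CPM in empty vector libraries. All 3 TIM-1 libraries were below all 3 empty vector libraries, and RIPK1 fell (paired log2 fold change -0.27, SE 0.07, edgeR adjusted p = 0.0185). TNFAIP3 (A20), a feedback inhibitor of NF-kappaB, had 11.6, 34.5 and 32.3 CPM in TIM-1 libraries, against 17.0, 46.7 and 41.9 CPM in empty vector libraries (paired log2 fold change -0.44, SE 0.10, edgeR adjusted p = 0.00204). CYLD, a deubiquitinase of the same complexes, and TNFRSF21 (DR6), an orphan death receptor, fell, with paired log2 fold changes of -0.24 (SE 0.07, edgeR adjusted p = 0.0472) and -0.57 (SE 0.17, edgeR adjusted p = 0.0375). BIRC3, RIPK1, TNFAIP3, CYLD and TNFRSF21 were also called lower in replicate 1, by log2 differences from -0.23 for RIPK1 to -1.80 for BIRC3. Without replicate 1 of both groups, RIPK1 at -0.26 (edgeR adjusted p = 0.0452) and TNFAIP3 at -0.41 (0.007) were still called, and CYLD (0.148) and TNFRSF21 (0.0591) were not. Without replicate 2, 0 of the 4 were called, with edgeR adjusted p from 0.0878 to 0.324, and without replicate 3 RIPK1 and TNFAIP3 were. Of 15 other genes of lytic death, 8 were tested and 0 were called in either fit.

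Replicate 1 differed from replicates 2 and 3 in many of the cell death genes. Adjusting for the vector, edgeR called 17 of 37, or 45.9%, against 26.4% of all tested genes, and 5 were higher and 12 lower in replicate 1. Without replicate 2 the count was 12, and without replicate 3 it was 15. The share of all tested genes called in those reduced fits is not given here, so these counts cannot be set against it. Over all tested genes the calls with every library in were even, 13.2% each way. The 2 replicate 1 libraries lay wholly outside the other 4 in 23 of 37, or 62.2%, against 39.7% of all tested genes. The median log2 difference of the 37 was -0.16, against -0.005 over all tested genes. Nothing in the labels says what sets replicate 1 apart. A change in the mix of cells cannot be told apart from a change in RNA per cell.

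Lower in replicate 1 were the pro-survival genes MCL1 and BCL2A1, the effector BAX, the BH3-only genes BID, BBC3, PMAIP1 and HRK, and CYCS, CASP4, CFLAR, TRADD and TNFRSF10A. The lowest log2 differences were -1.83 for BCL2A1 (edgeR adjusted p = 0.00137), -1.62 for BBC3 (edgeR adjusted p = 1.1e-09) and -1.0 for PMAIP1 (edgeR adjusted p = 5.91e-08). HRK was at -0.76 (edgeR adjusted p = 0.0102). MCL1, the partner that PMAIP1 binds, was at -0.73 (edgeR adjusted p = 5.34e-13), so a pro-survival gene and its antagonist were both lower in the same libraries. Higher in replicate 1 were BMF at 1.28 (edgeR adjusted p = 0.0406), TNFRSF10D at 0.91 (edgeR adjusted p = 2.99e-10), APAF1 at 0.90 (edgeR adjusted p = 9.67e-09), FADD and BCL2L2. BMF was under 2 CPM in every library. Of the 9 p53-driven genes, 6 were called, TNFRSF10D and APAF1 higher and BAX, BBC3, PMAIP1 and TNFRSF10A lower, so the p53-driven genes did not move one way.

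**Figure D3:**
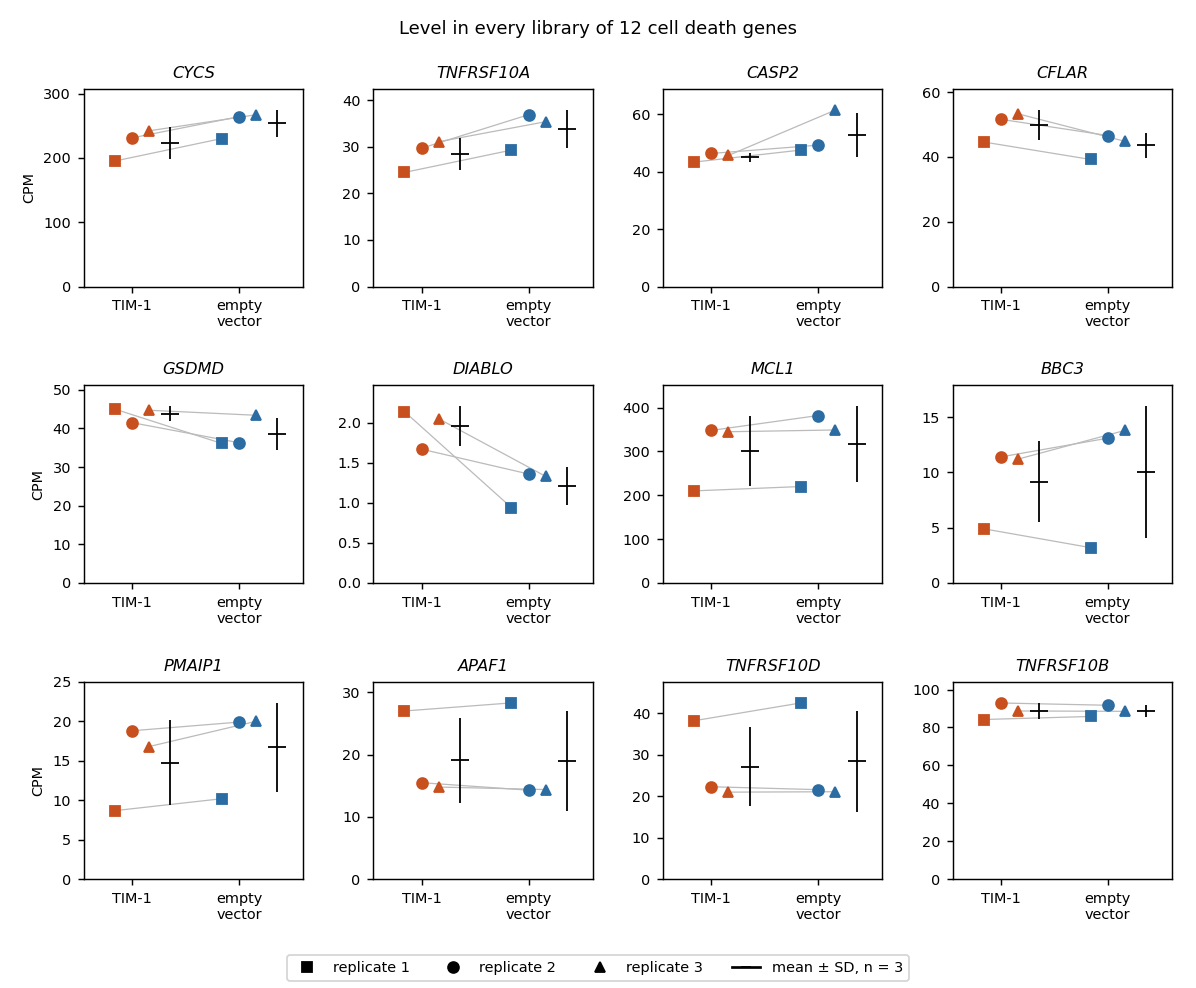
CPM in every library for 12 genes, on linear axes from 0, with TIM-1 at the left and empty vector at the right of each panel; grey lines join same-numbered replicates, and the black bars are mean ± SD (n = 3). The first 5 had an unadjusted p under 0.05 for TIM-1 in the paired fit and DIABLO in the unpaired fit. The others were picked, after the values were seen, to show a level gene (TNFRSF10B) and genes in which replicate 1 (squares) stood apart in both groups.

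**Figure D4:**
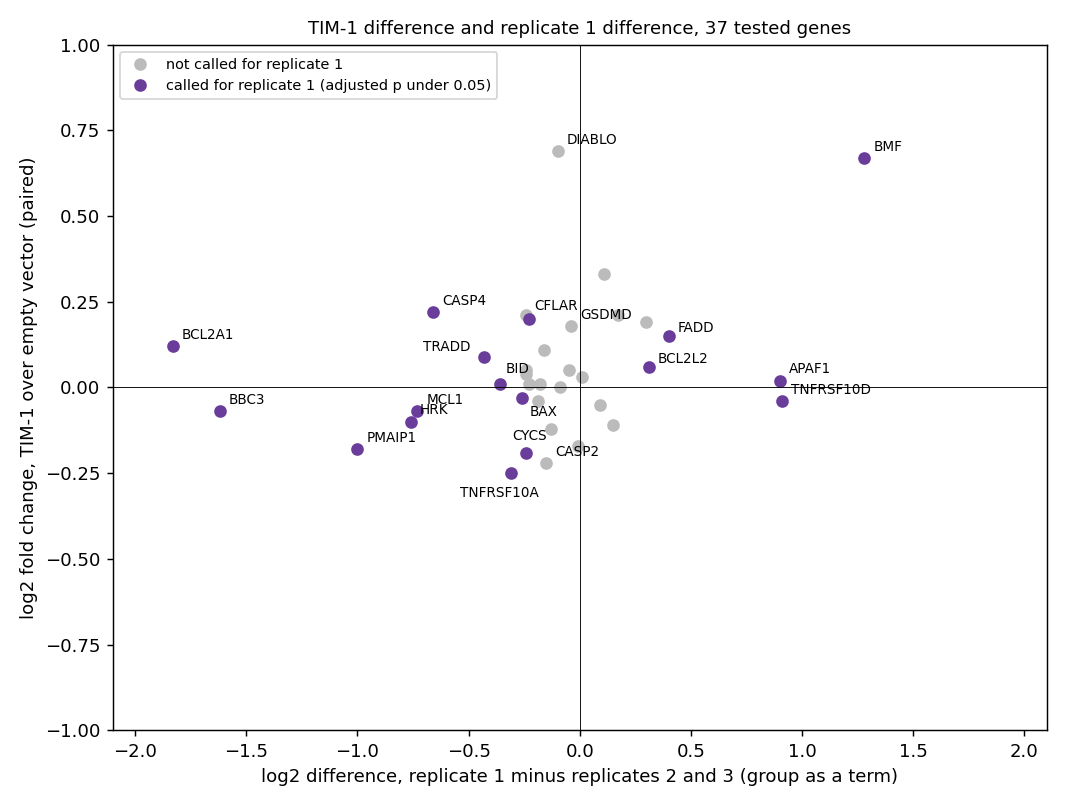
Paired log2 fold change of TIM-1 over empty vector (vertical) against the log2 difference of replicate 1 from replicates 2 and 3 (horizontal) for the 37 tested genes, with genes called for replicate 1 in purple. Points spread from -1.83 to 1.28 along the replicate axis and from -0.25 to 0.69 along the TIM-1 axis.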

How the data were processed

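The authors deposited a table of raw counts, with whole reads per Ensembl identifier, not normalized, and a column for each library. Per the submitters' processing notes, HISAT2 2.0.5, featureCounts 1.5.0-p3, DESeq2 1.16.1 and hg38 were used. The strand setting and the rule for reads in overlapping genes or with several alignments are not given here, in any source used. Lengths and positions came from GENCODE 29.

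The 42 genes and all lists were chosen with earlier results of these data known. Groups came from the treatment labels and replicate numbers from the titles. Genes were kept with filterByExpr (minimum count 10), scaled by TMM and tested with edgeR 4.0.16 in R 4.3.3 (quasi-likelihood, robust, Benjamini-Hochberg over 14479 genes, threshold 0.05), without and with the replicate number as a block. Between libraries of equal number, deviations from the group mean correlated across genes at 0.53, 0.227 and 0.264, and those of other pairings at -0.401 to 0.259, so the numbers were taken to pair the libraries, from these correlations and not from the labels. TIM-1 replicate 3 correlated with empty vector replicate 2 at 0.259, above the 0.227 of the pair numbered 2, so replicates 2 and 3 are not clearly paired by number. The code was tested on simulated data. The biological coefficient of variation was 14.2% unpaired and 6.67% paired. CPM per kilobase divides by merged exon length. Full values are given for genes called or not overlapping between groups and for the most abundant gene of each role. Values in every library are also given for some genes outside this rule, such as BBC3, PMAIP1, APAF1 and TNFRSF10D. In these replicate 1 stood apart. Alternatives were RLE scaling, no filter, DESeq2 1.42.0, a GC correction, a block that only separates replicate 1, and each replicate left out. Intervals of fold changes include the spread between libraries, while the interval of the CASP1 ratio and the floors cover counting error only. At these depths 3 counts are 0.162 to 0.207 CPM.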

Additional observations from a re-analysis of the deposited data

How the results depend on the processing

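The replicate block changed the call of no cell death gene: 0 of 37 were called with it and 0 without it. Over all tested genes, the unpaired count of 2 became 72 with no filter on low counts, 30 with DESeq2 and 725 with the replicate block, and it ran from 1 to 9 when 1 library was left out, the 9 without empty vector replicate 1. The paired count of 725 became 1216 with the GC correction, 227 with DESeq2 and 510 with a block that only separates replicate 1. With 1 pair left out it was 838 without replicate 1, 209 without replicate 2 and 473 without replicate 3. The block that only separates replicate 1 called 0 of the 37. Of the cell death genes, 1 was called in the paired fit with RLE scaling (CYCS) and 2 with the GC correction (CYCS and CASP2), and the cause was not tested. No cell death gene was called in any fit with a library or pair left out. The smallest edgeR adjusted p there was 0.315 unpaired (TNFRSF10A) and 0.0515 paired (CYCS). Leaving out 1 library turned the sign of 5 to 10 of the 37 unpaired estimates, of sizes up to 0.17, and leaving out 1 pair that of 4 to 7 paired estimates, of sizes up to 0.15. Among genes given in full, unpaired log2 fold changes ran from -0.283 to 0.129 for MCL1, from -0.103 to 0.0644 for BAX, from -0.0948 to 0.128 for BID and from -0.0367 to 0.0344 for TNFRSF10B. Paired ones ran from -0.0675 to 0.0616 for BID and from -0.0124 to 0.00778 for TNFRSF10B. The number of cell death genes called for replicate 1 was 18 with RLE scaling and ran from 12 to 15 without replicate 2 or 3. The share of all tested genes under these alternatives is not given here. With 3 libraries a group, the paired intervals leave room for a log2 difference of over 0.5 in 6 of 37 genes. BIK, CASP1, CASP10, TNFSF10 and RIPK3 were too low to test.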
